A study of Mus musculus with 6 samples.

Results

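The Hox genes of the 4 mammalian clusters were examined in uterine tissue of mice with and without an intact Tcf21 gene. Members were all protein-coding genes named Hoxa, Hoxb, Hoxc or Hoxd followed by a number in the deposited expression table, and 34 of 26018 listed genes met this rule. They comprise 11 genes of the Hoxa cluster on chromosome 6 (chr6:52155590-52260880), 8 of the Hoxb cluster on chromosome 11 (chr11:96271457-96354012), 9 of the Hoxc cluster on chromosome 15 (chr15:102921103-103036852) and 6 of the Hoxd cluster on chromosome 2 (chr2:74679557-74748442), with coordinates on GRCm38. The assay was bulk RNA sequencing of total RNA from uterine tissue of 6-week-old female mice matched for body weight and given no treatment. The control group was 3 Tcf21f/f animals, whose Tcf21 alleles are floxed, and the conditional knockout (cKO) group was 3 Tcf21d/d animals, in which those alleles are deleted. Each library came from 1 animal. The comparison was made in a search for genes that TCF21, a DNA-binding protein of the basic helix-loop-helix class found in mesenchyme, may regulate during development of the uterus. The sources used here do not give the Cre driver that makes the deletion, and so not the cells that lose Tcf21.

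Hox genes encode homeodomain transcription factors that give cells their position along the body axis. Their order on the chromosome follows the order in which they are used along the body: genes at the 3′ end of a cluster, with low paralogue numbers, act towards the head, and genes at the 5′ end, with high numbers, act towards the tail. In the female reproductive tract the posterior Hoxa genes mark successive segments of the Müllerian duct, with Hoxa9 in the oviduct, Hoxa10 in the uterus, Hoxa11 in the lower uterus and cervix and Hoxa13 in the upper vagina, and Hoxa10 and Hoxa11 stay active in the adult uterine stroma, where they are needed for implantation. Paralogue groups 1 to 3 are called anterior here, 4 to 8 central and 9 to 13 posterior.

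Library totals ran from 14584450 to 16579573 reads on genes, of which the Hox genes took 5227 to 9200, or 0.0358% to 0.0586%. Tcf21 had normalised counts of 341, 152 and 144 in the controls and 26.0, 0 and 0 in cKO replicates 1 to 3, where 0 reads allow up to 2.93 and 3.31 in cKO replicates 2 and 3. Its groups did not overlap, yet it was not called at 0.05 in the limma comparison described below (log2 fold change -6.03, adjusted p = 0.0765). The authors' deposited adjusted p for Tcf21 was 0.284. Control replicate 3 stood apart from the other controls in its Hox genes, as described below, and in its summed share of uterine epithelial genes. In its share of uterine smooth muscle markers, 1.27%, it lay between control replicates 1 and 2 (0.875% and 1.34%). Its share of uterine mesenchymal markers was 0.0482%, against 0.0582% and 0.0558% in those 2 libraries. The summed share of reads on a list of 6 uterine epithelial genes was 0.0295%, 0.0112% and 0.00134% in control replicates 1 to 3 and 0.00166% to 0.00301% in the cKO libraries. Foxa2, which marks uterine glands, had 73, 4 and 0 reads in control replicates 1 to 3 and 0 in all 3 cKO libraries. Krt18 was likewise high in control replicate 1 alone, with normalised counts of 2654, 127 and 72.1 in the controls and 103 to 239 in the cKO libraries. Krt8 was high in control replicates 1 and 2, with 1850, 1090 and 70.3 in the controls. Markers of other tissues also differed between libraries: 10 liver genes had a share of 1.44% in control replicate 1 and at most 0.0106% elsewhere, 8 intestinal epithelial genes took 0.0330% in control replicate 2 and at most 0.00515% elsewhere, and 9 neuronal genes took 0.0513% in control replicate 3 and at most 0.00862% elsewhere. How far the liver and intestinal signals of control replicates 1 and 2 enter their epithelial shares was not tested. Genes of skeletal muscle, 13 in all, held 3.19% to 6.27% of control and 6.56% to 9.40% of cKO reads. Results are therefore given with and without the control libraries that decide them.

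Expression was compared as log2 of the normalised count plus 1 with limma over all 16314 genes that had enough reads, and 30 of the 34 Hox genes were among them. None of the 30 passed a Benjamini-Hochberg adjusted p of 0.05 in limma, against 1.16% of all genes tested (0.889% lower and 0.276% higher in the cKO uteri). At an unadjusted p under 0.05 there were 6 of 30, against 13.7% of all genes: Hoxa10, Hoxa11 and Hoxd9 with lower (7.6% of all genes) and Hoxc6, Hoxc9 and Hoxc10 with higher values (6.11%) in the cKO uteri. These 6 are all central or posterior genes, and the lower 3 lie in the Hoxa and Hoxd clusters while the higher 3 lie in the Hoxc cluster. Of the other tools, edgeR called 0 of 30 (0.748% of all genes) and DESeq2 called 3 (5.33% of all genes), namely Hoxa10 and Hoxa11 lower (3.58%) and Hoxc6 higher (1.75%). In the authors' deposited table, Hox genes numbering 2 of 34 had an adjusted p under 0.05, Hoxa10 at 0.000367 and Hoxa11 at 0.0147, both lower, against 3.21% of all genes there (2.34% lower), and Hoxc6 had 0.0545.

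Without control replicate 3, limma called Hoxa10 lower and Hoxc6 higher, 2 of 30 against 1.74% of all genes tested in that fit (1.39% lower and 0.344% higher). Without control replicates 1 and 3, which leaves 1 control and takes its spread from the other group, it called Hoxa10 lower and Hoxc6 and Hoxc10 higher, 3 of 30 against 4.29% (2.79% lower and 1.5% higher). The groups did not overlap for 7 of 30 (19.6% of all genes). All 3 cKO libraries lay below all controls for 4 of them, Hoxa10, Hoxa11, Hoxd3 and Hoxd9 (10.5% of all genes), and above all controls for 3, Hoxc6, Hoxc9 and Hoxc10 (9.04%). The share of Hox genes with separated groups was thus near that of all genes. A fitted log2 fold change below -1 was found for 5 of 30, Hoxa10, Hoxa11, Hoxd3, Hoxd10 and Hoxd11, or 16.7% against 7.27% of all genes, and none lay above 1, which 3.67% of all genes did.

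**Figure D1:**
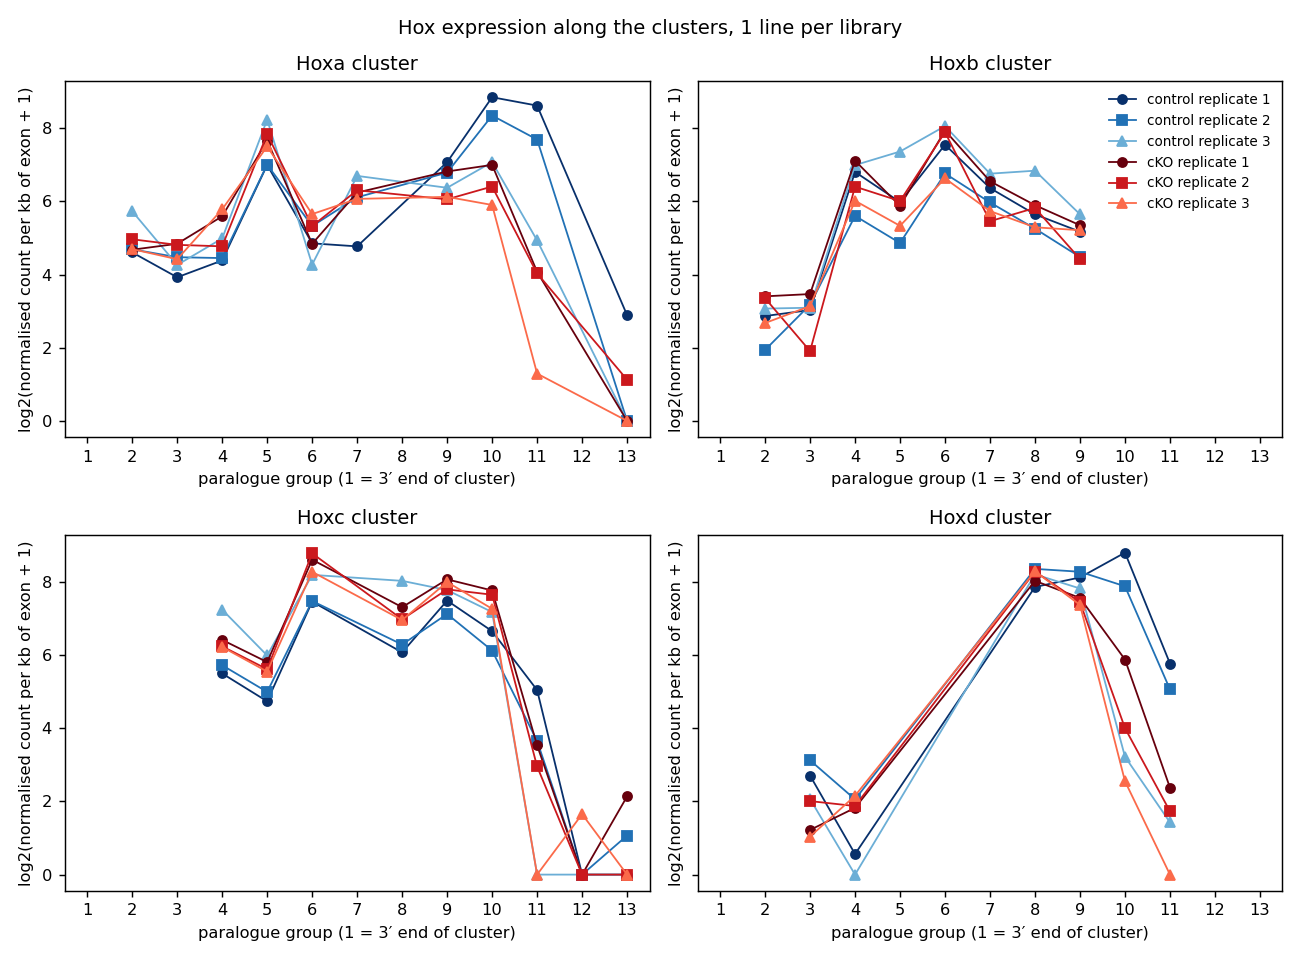
Expression of Hox genes along each cluster, as log2 of the normalised count per kilobase of exon plus 1, against the paralogue group, with 1 line per library (controls in blue, cKO in red). In the Hoxa and Hoxd panels control replicates 1 and 2 stay high at groups 10 and 11, where control replicate 3 runs with the cKO libraries, and in the Hoxc panel the cKO lines lie highest at groups 6, 9 and 10.

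The fitted changes differed by position in the cluster. The median log2 fold change over the 10 posterior genes tested was -0.69, with 8 of 10 below 0. It was 0.20 over the 14 central genes, with 11 above 0, and 0.13 over the 6 anterior genes, with 3 on each side. Over all 30 the median was 0.04, with 14 below 0, and over all genes tested it was 0.00, with 49.7% below 0. By cluster the medians were 0.30 for Hoxa (10 genes), -0.18 for Hoxb (8 genes), 0.43 for Hoxc (7 genes) and -1.52 for Hoxd (5 genes). The posterior genes were not uniform, since all 3 tested in the Hoxa cluster and all 3 in the Hoxd cluster had fitted values below 0 (from -4.10 to -0.41 and from -3.43 to -0.61), while in the Hoxc cluster Hoxc9 and Hoxc10 were above 0 and Hoxc11 was at -0.76. These are counts and medians of fitted values, without a test of the groups of genes.

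**Figure D2:**
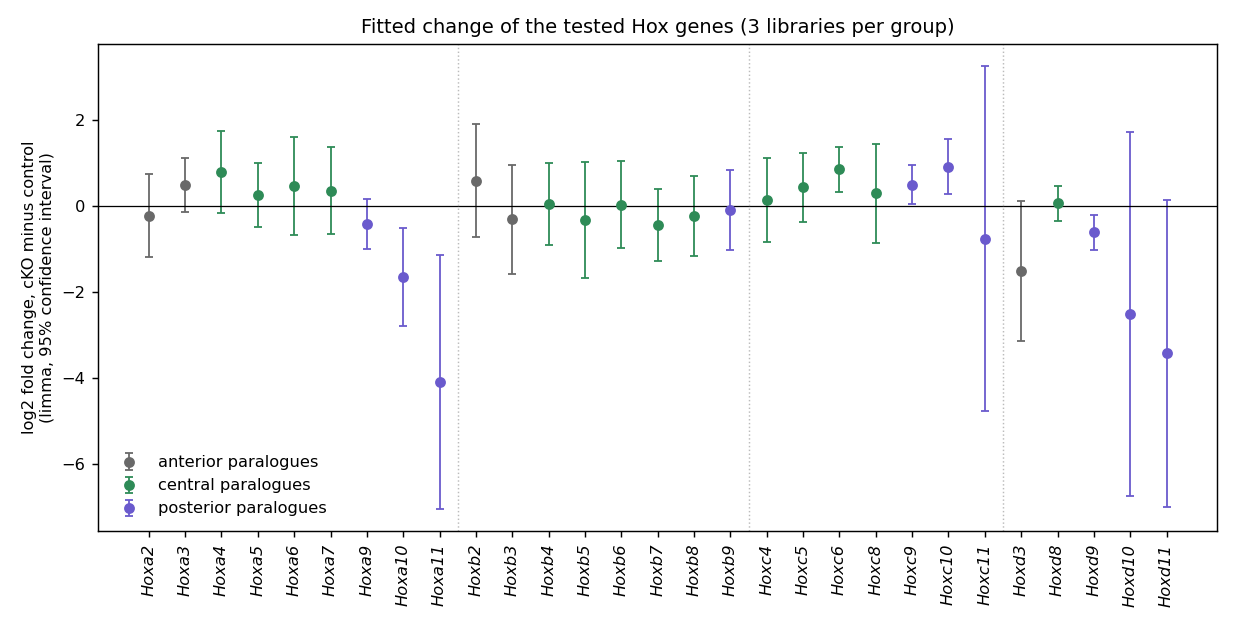
Fitted log2 fold change of the tested Hox genes described here, cKO minus control, with the 95% confidence interval from limma (3 libraries per group), ordered by cluster and paralogue number and coloured by position class. The intervals of Hoxa10, Hoxa11 and Hoxd9 lie wholly below 0 and those of Hoxc6, Hoxc9 and Hoxc10 wholly above it, and the widest belong to Hoxd10, Hoxc11, Hoxd11 and Hoxa11.

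Hoxa10, Hoxa11, Hoxd10 and Hoxd11 carried the largest posterior differences, and the 250 bases before their start sites are given so that these members can be seen beside their values. The sequences are those of RefSeq on GRCm38.p6, 5′ to 3′ on the gene's strand. Capitals mark matches on either strand to CANNTG, the E-box class of sequence that basic helix-loop-helix proteins such as TCF21 bind.
Hoxa10, chr6:52234940-52235189, minus strand: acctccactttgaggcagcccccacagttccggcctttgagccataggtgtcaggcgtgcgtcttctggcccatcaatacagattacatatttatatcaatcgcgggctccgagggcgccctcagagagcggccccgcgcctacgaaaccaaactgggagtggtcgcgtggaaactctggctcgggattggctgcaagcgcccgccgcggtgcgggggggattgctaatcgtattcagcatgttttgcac
Hoxa11, chr6:52245811-52246060, minus strand: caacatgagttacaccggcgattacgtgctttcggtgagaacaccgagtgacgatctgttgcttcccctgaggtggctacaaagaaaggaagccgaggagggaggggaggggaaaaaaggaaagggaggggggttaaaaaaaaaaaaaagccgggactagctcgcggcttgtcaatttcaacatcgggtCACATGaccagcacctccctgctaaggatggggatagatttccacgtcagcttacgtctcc
Hoxd10, chr2:74691641-74691890, plus strand: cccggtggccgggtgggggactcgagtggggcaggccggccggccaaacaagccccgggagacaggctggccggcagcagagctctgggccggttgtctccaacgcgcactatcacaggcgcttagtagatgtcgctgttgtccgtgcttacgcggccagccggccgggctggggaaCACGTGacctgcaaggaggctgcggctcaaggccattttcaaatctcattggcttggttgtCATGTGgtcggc
Hoxd11, chr2:74682073-74682322, plus strand: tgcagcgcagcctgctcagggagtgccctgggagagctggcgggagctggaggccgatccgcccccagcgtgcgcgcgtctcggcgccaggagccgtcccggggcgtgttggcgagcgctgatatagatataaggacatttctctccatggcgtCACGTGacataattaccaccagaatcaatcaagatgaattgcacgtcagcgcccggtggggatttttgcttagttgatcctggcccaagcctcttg
The Hoxa10 window lies in an intron of longer Hoxa10 transcripts, and the Hoxd11 window in an intron of a longer Hoxd11 transcript. The Hoxa11 window lies within the antisense gene Hoxa11os and overlaps its exons, and the Hoxd10 window lies in an intron of the predicted gene Gm28309. Hoxa10 had no CANNTG match, Hoxa11 had CACATG 61 bases before the start, Hoxd10 had CACGTG 73 and CATGTG 12 bases before it, and Hoxd11 had CACGTG 96 bases before it. A CANNTG match is common, found in 66.2% of 32851 RefSeq promoter windows of the same length and in 13 of the 20 windows that the table holds for 18 Hox genes. TGATNNAT, the form that homeodomain proteins bind together with PBX cofactors, was also searched on both strands. Of these 4 windows it matched that of Hoxd11 alone, 73 bases before the start, against 7.68% of all windows. Neither motif overlaps the other there, and a match describes the letters only.

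Hoxa10 (ENSMUSG00000000938, chr6:52231197-52240854, minus strand) controls the response of the uterine stroma to progesterone. Its normalised counts were 1502, 1060.5 and 437 in control replicates 1 to 3 and 414, 274 and 192 in cKO replicates 1 to 3. All cKO libraries lay below all controls, but control replicate 3 exceeded cKO replicate 1 by little. The control mean of 999.8 ± 535 (SD, n = 3) was 3.41 times the cKO mean of 293.6 ± 112, and the log2 fold change was -1.66 ± 0.48 (SE, limma adjusted p = 0.191). Without control replicate 3 it was -2.17 with a limma adjusted p of 0.0209. With all libraries kept, DESeq2 gave -1.77 with an adjusted p of 0.00128. The call thus depends on the test used as well as on control replicate 3.

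Hoxa11 (ENSMUSG00000038210, chr6:52242106-52245810, minus strand) is required for uterine stromal growth and gland formation. Its values were 896, 470.0 and 67.6 in the controls and 36.2, 35.1 and 3.31 in the cKO libraries, where 3.31 stands for 3 reads. The groups did not overlap, and the highest library was 270.4 times the lowest, the widest range of any Hox gene. The control mean of 478 ± 414 (SD, n = 3) was 19.2 times the cKO mean of 24.9 ± 18.7, and the log2 fold change was -4.10 ± 1.23 (SE, limma adjusted p = 0.221). It was -5.18 (adjusted p = 0.0869) without control replicate 3, -3.32 (0.211) without control replicate 1 and -3.07 (0.543) with cKO replicate 3 left out, and DESeq2 called it with an adjusted p of 0.0124. Exons of Hoxa11os cover 35.0% of its exons on the opposite strand and no source says that strand was used in counting, so reads of the 2 genes cannot be told apart there. In bulk tissue, fewer cells that express a gene and less RNA per cell cannot be told apart either.

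Hoxa9, the oviduct-level member of the cluster, had 745, 610 and 456 in the controls and 623, 366 and 383 in the cKO libraries, so that the groups overlapped (log2 fold change -0.41 ± 0.26, limma adjusted p = 0.534). Per kilobase of exon, Hoxa10 stood at 3.44, 2.97 and 1.63 times Hoxa9 in the controls and at 1.13, 1.28 and 0.856 times in the cKO libraries. The Hoxa11 level per kilobase was 0.853, 0.634 and 0.221 of that of Hoxa10 in the controls and 0.125, 0.183 and 0.0247 in the cKO libraries. Both of these ratios of neighbouring Hoxa genes were lower in every cKO library than in every control. Not all neighbours behaved so: the ratios of Hoxd10 to Hoxd9, Hoxd11 to Hoxd10 and Hoxc10 to Hoxc9 per kilobase overlapped between the groups. How often such ratios separate the groups for other gene pairs was not tested. Hoxa13, the most posterior Hoxa gene, did not pass the filter: it had 15.9 in control replicate 1, 2.93 in cKO replicate 2 and 0 reads in the other 4 libraries.

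In the Hoxd cluster the posterior genes Hoxd9, Hoxd10 and Hoxd11, which act in the limb and urogenital tract, were also lower on average in the cKO uteri. Hoxd9 (ENSMUSG00000043342, chr2:74697727-74700208) had 593, 661 and 480.4 in the controls and 401, 371 and 351 in the cKO libraries. The groups did not overlap and the spread within each was small, yet the log2 fold change of -0.61 ± 0.18 (SE) had a limma adjusted p of 0.172. Without control replicate 3 it was -0.74 with an adjusted p of 0.0961. Per kilobase, Hoxd9 was at 1.20, 0.947 and 0.764 of its neighbour Hoxd8 in the controls and at 0.723, 0.559 and 0.528 in the cKO libraries, again without overlap.

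Hoxd10 (ENSMUSG00000050368, chr2:74691924-74695105) had 807, 426 and 15.1 in the controls and 105, 27.3 and 8.84 in the cKO libraries. Control replicate 3 lay below cKO replicates 1 and 2, so the groups overlapped, and the log2 fold change of -2.52 ± 1.70 (SE, limma adjusted p = 0.595) rested on control replicates 1 and 2. Leaving out control replicate 1 gave -1.42, leaving out control replicate 2 gave -1.89, and leaving out control replicate 3 gave -4.25 (adjusted p = 0.147), while leaving out both control replicates 1 and 3 gave -3.79. Hoxd11 (ENSMUSG00000042499, chr2:74679557-74687016), described after its values were seen, had 226, 137 and 7.12 in the controls and 17.7, 9.75 and 0 in the cKO libraries, where 0 reads in cKO replicate 3 allow up to 3.31. It overlapped in the same way, with control replicate 3 below cKO replicates 1 and 2, and its log2 fold change was -3.43 ± 1.53 (SE, limma adjusted p = 0.385). Leaving out control replicate 1 gave -2.51, leaving out control replicate 3 gave -4.91, and leaving out cKO replicate 3 gave -2.16. Exons of Gm28309 cover 5.73% of Hoxd10 and 10.8% of Hoxd11 on the same strand.

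The posterior Hoxc genes did not share this pattern. Hoxc9 (ENSMUSG00000036139, chr15:102976439-102985099) had 434, 336 and 530.2 in the controls and 650.4, 537 and 618 in the cKO libraries. Hoxc10 (ENSMUSG00000022484, chr15:102966796-102971893), the paralogue of Hoxa10 and Hoxd10, had 190.2, 131 and 274 in the controls and 413, 381 and 292 in the cKO libraries. For both genes all cKO libraries were above all controls, and control replicate 3 was the control nearest to them. The log2 fold changes were 0.49 ± 0.20 (SE, limma adjusted p = 0.326) for Hoxc9 and 0.91 ± 0.29 (adjusted p = 0.195) for Hoxc10. Hoxc9 was at 0.32 without control replicate 2 and at 0.83 (adjusted p = 0.0543) without control replicates 1 and 3, and Hoxc10 was at 1.44 with an adjusted p of 0.0187 without control replicates 1 and 3. Hoxc10 shares 8.70% of its exon bases with Hoxc5 on the same strand, and Hoxc9 has stretches of up to 122 bases that are nearly identical to 7 other genes.

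The levels of the group 10 paralogues can be compared per kilobase of exon within a library. Hoxa10 was at 4.61, 4.72 and 0.931 times Hoxc10 in control replicates 1 to 3 and at 0.585, 0.420 and 0.385 times in the cKO libraries. Hoxd10 was at 4.46, 3.41 and 0.0580 times Hoxc10 in the controls and at 0.267, 0.0753 and 0.0319 times in the cKO libraries. In control replicates 1 and 2 Hoxc10 was thus the lowest of the 3 group 10 paralogues, whereas in control replicate 3 and all cKO libraries it was the highest. Hoxc11 was low throughout, with 64.6, 23.4 and 0 in the controls and 21.4, 13.7 and 0 in the cKO libraries, and Hoxb9 did not separate the groups (54.8 to 126 in controls and 52.7 to 102 in cKO libraries).

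**Figure D3:**
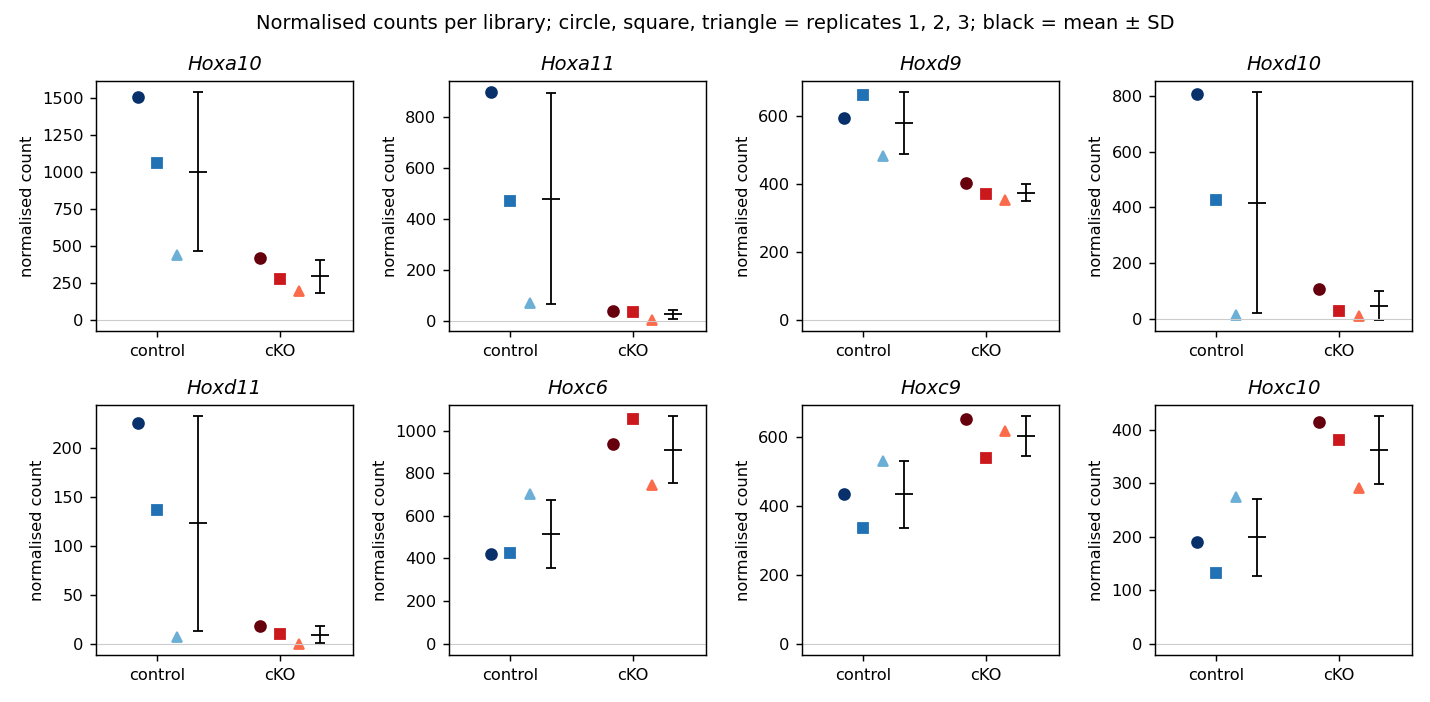
Normalised counts of Hoxa10, Hoxa11, Hoxd9, Hoxd10, Hoxd11, Hoxc6, Hoxc9 and Hoxc10 in each library (circle, square and triangle for replicates 1, 2 and 3), with mean ± SD of 3 libraries in black and a linear axis per gene. Control replicate 3 is the lowest control in the 5 Hoxa and Hoxd panels and the highest control in the 3 Hoxc panels.

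Among central genes, which mark trunk levels of the axis, Hoxc6 (ENSMUSG00000001661, chr15:102998257-103011881) had the highest mean level of any Hox gene in the cKO libraries, 379 normalised counts per kilobase of exon against 294 for Hoxd8. In the controls its mean of 215 was below those of Hoxa10 (306), Hoxd8 (284), Hoxd9 (271) and Hoxd10 (229). Its normalised counts were 422, 427 and 702 in the controls and 937, 1056 and 744 in the cKO libraries. The groups did not overlap, but control replicate 3 and cKO replicate 3 were close to each other. Its log2 fold change was 0.85 ± 0.24 (SE, limma adjusted p = 0.153), or 1.76-fold between the means of 517 ± 160 (SD, n = 3) and 912 ± 158. Without control replicate 3 it was 1.09 with an adjusted p of 0.0370, and DESeq2 called it with an adjusted p of 0.0493.

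Hoxd8 was the steadiest Hox gene that passed the filter, with 635, 896 and 808 in the controls and 714, 851 and 855 in the cKO libraries, a 1.41-fold range (log2 fold change 0.06 ± 0.18, limma adjusted p = 0.925). Hoxa5, which is best known for its part in lung and axial skeleton development, had 238, 239 and 563 in the controls and 378, 428 and 338 in the cKO libraries. Its highest value was that of control replicate 3, and the cKO values lay between those of the controls. The log2 fold change was 0.26 ± 0.33 (adjusted p = 0.794).

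Control replicate 3 was also the highest library for several central genes that did not separate the groups. Hoxc8 had 188, 218 and 737 in the controls and 446, 354 and 349 in the cKO libraries. Hoxb5 had 173, 78.2 and 455 in the controls and 161, 176 and 109 in the cKO libraries. For both genes the control range enclosed all cKO values. The Hoxb genes overlapped between groups in every case: the 3 most abundant per kilobase were Hoxb6 (366, 211 and 521 in controls, 479, 464 and 192 in cKO), Hoxb4 (284, 122 and 324 in controls, 352, 215 and 164 in cKO) and Hoxb7 (126, 95.3 and 165 in controls, 143, 66.3 and 80.7 in cKO). Their log2 fold changes were 0.03, 0.04 and -0.45.

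Anterior genes, which pattern hindbrain and neck levels, were a small part of Hox expression in every library. Hoxa2 and Hoxa3 had log2 fold changes of -0.23 and 0.49, and Hoxb2 and Hoxb3 of 0.59 and -0.32, with overlapping groups for these 4 genes. Hoxd3 had 23.2, 32.4 and 13.3 in the controls and 5.58, 12.7 and 4.42 in the cKO libraries, and its groups only just failed to overlap (log2 fold change -1.52 ± 0.72, SE, limma adjusted p = 0.401). Exons of Hoxd4 and the predicted gene Gm28230 cover 62.3% of Hoxd3 on the same strand, so the counts of Hoxd3 and Hoxd4 are uncertain. Besides Hoxa13, the genes below the filter were Hoxd4 at 0 to 8.84, Hoxc13 at 0 to 8.36 and Hoxc12 at 0 to 2.21, too few reads to compare.

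The positional makeup of each library can be given as shares of its summed Hox expression per kilobase of exon. Posterior genes made up 61.9%, 53.3% and 27.3% in control replicates 1 to 3 and 34.6%, 29.4% and 32.1% in the cKO libraries. Central genes made up 36.1%, 44.1% and 70.0% in the controls and 62.7%, 67.7% and 65.0% in the cKO libraries, and anterior genes 1.96% to 2.93% in all libraries. Control replicates 1 and 2 were thus mostly posterior, while control replicate 3 had a lower posterior share than all 3 cKO libraries. That share also depends on the central genes, which had 6198 reads in control replicate 3 and 3250 to 4811 in the cKO libraries. Posterior genes had 2691 reads in control replicate 3, within the cKO range of 1759 to 3007. The group means were 47.5 ± 18.0% (SD, n = 3) and 32.0 ± 2.58%, a difference of -15.5 percentage points that is within the SD of the controls. Leaving out control replicate 3 gave -25.6 points, leaving out control replicate 1 gave -8.28, and leaving out both gave -21.3. As shares of Hox reads, with no division by length, posterior genes took 64.1% (95% Wilson interval 63.0% to 65.2%), 55.4% (54.3% to 56.5%) and 29.2% (28.3% to 30.2%) in the controls. They took 36.9% (35.8% to 37.9%), 30.6% (29.5% to 31.7%) and 33.7% (32.4% to 34.9%) in the cKO libraries. The intervals cover counting error only, and the gaps between controls are much wider than they are.

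**Figure D4:**
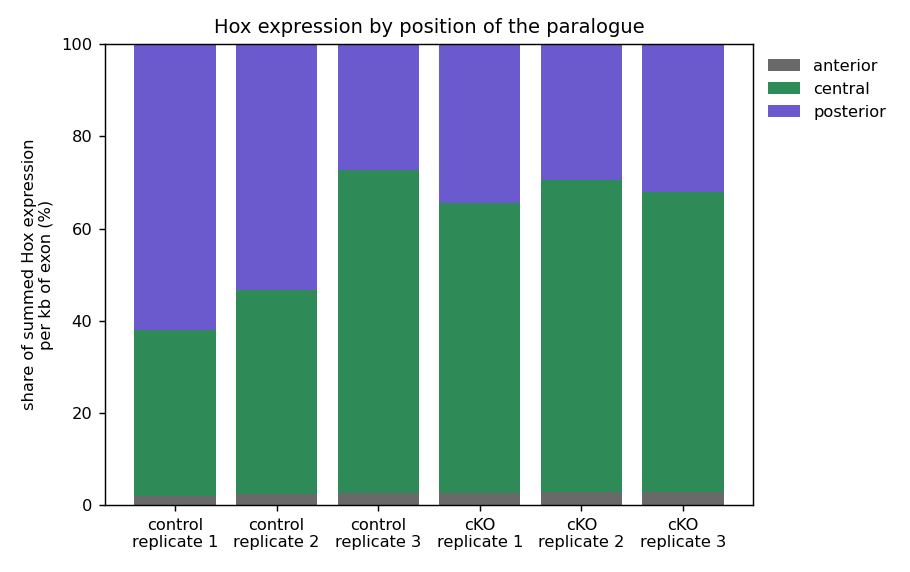
Share of summed Hox expression per kilobase of exon from anterior (groups 1 to 3), central (4 to 8) and posterior (9 to 13) genes, as a stacked bar from 0 to 100% for each library. The posterior part is 61.9% and 53.3% in control replicates 1 and 2 and 27.3% to 34.6% in control replicate 3 and the cKO libraries.

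By cluster, the Hoxc genes made up 18.2%, 20.4% and 34.5% of summed Hox expression in the controls and 39.3%, 40.7% and 41.4% in the cKO libraries, with all cKO libraries above all controls. The Hoxa genes made up 36.3%, 34.6% and 23.5% in the controls and 22.0% to 22.9% in the cKO libraries, all below the controls. The Hoxd share was 29.7%, 33.5% and 16.3% in the controls and 17.0%, 18.5% and 20.9% in the cKO libraries. The Hoxb share ranged from 11.5% to 25.7% in the controls and from 14.7% to 21.5% in the cKO libraries, and both overlapped. A share also depends on the other clusters. As summed expression per kilobase, Hoxc overlapped, with 622, 557 and 1126 in the controls and 1184, 1114 and 961 in the cKO libraries. The Hoxd sum did not overlap, with 1013, 914 and 532 in the controls against 514, 507 and 486. Nor did the Hoxa sum, with 1240, 946 and 769 against 668, 602 and 532. The most abundant Hox gene per kilobase was Hoxa10, Hoxd8 and Hoxa5 in control replicates 1 to 3 and Hoxc6, Hoxc6 and Hoxd8 in cKO replicates 1 to 3. Summed over all 34 genes, Hox expression per kilobase was 3137 ± 359 (SD, n = 3) among controls against 2690.1 ± 351 among cKO animals, a difference of about the size of the spread within groups.

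Over the 34 genes, Pearson's r of log2 expression was 0.917 between control replicates 1 and 2 and 0.888 to 0.944 between cKO libraries. Control replicate 3 had an r of 0.761 and 0.820 with the other controls and of 0.911 to 0.938 with the cKO libraries. Over the 13 posterior genes alone these values were 0.776 to 0.842 and 0.913 to 0.943, and over the 21 anterior and central genes 0.898 to 0.941 and 0.889 to 0.928. In its posterior Hox genes, then, the library labelled control replicate 3 was closer to each cKO library than to either other control, which did not hold for its anterior and central genes. These correlations are across genes within pairs of libraries, and genes are not independent replicates.

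Some other measures moved with the tested posterior Hoxa and Hoxd genes, which were lowest among the controls in replicate 3. The posterior genes Hoxb9, Hoxc9 and Hoxc10 were instead highest among the controls in that replicate. The estrogen receptor gene Esr1 had 1961, 1297 and 455 in control replicates 1 to 3 and 387 to 667 in the cKO libraries, the progesterone receptor gene Pgr had 1996, 1631 and 727 against 389 to 755, and Wt1, a factor of urogenital mesenchyme, had 441, 252 and 61.4 against 128 to 173. All 3 were lowest among the controls in replicate 3, as was the summed share of the epithelial genes. Other mesenchymal markers did not follow this order: Hand2 was highest in replicate 3, with 302, 437 and 1108 in the controls against 14.6 to 72.5 in the cKO libraries, Pdgfra had 2389, 2229 and 3083 against 3031 to 4408, and Nr2f2 had 863, 773 and 791 against 551 to 592. Summed over 8 uterine mesenchymal markers, a list that holds Hoxa10 and Hoxa11, the share of reads was 0.0482% to 0.0582% in the controls and 0.0309% to 0.0457% in the cKO libraries, with no member at 0 in any library. Of 6 smooth muscle markers, 5 fell in the cKO uteri with limma adjusted p values of 0.000107 to 0.00895. Of all genes tested, 0.889% were called lower by limma. The log2 fold changes of the 5 markers were -6.86 for Actg2, -5.86 for Cnn1, -4.50 for Myh11, -3.01 for Tagln and -2.96 for Acta2. For each of these 5 genes control replicate 3 lay far above all cKO libraries, as for Actg2 with 13052, 23669 and 19171 in the controls and 405, 96.5 and 95.02 in the cKO libraries. Des, which striated muscle also expresses, had a log2 fold change of 0.06 and supplied most of the list's reads in the cKO libraries, so that the summed share was 0.875% to 1.34% in the controls and 0.443% to 0.631% in the cKO libraries. The part of tissue composition in the Hox differences was not tested.

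Noncoding genes within the clusters gave 8 tested members of 13 listed, and limma called none (1 with an unadjusted p under 0.05, 0 by edgeR and 0 by DESeq2). Over all genes tested the shares were 1.16% by limma, 13.7% at the unadjusted p, 0.748% by edgeR and 5.33% by DESeq2, and the counts of the lists that follow are read against the same shares. Hoxa11os, the antisense partner whose exons overlap those of Hoxa11, was also lower on average in the cKO uteri. It had 159, 96.2 and 15.1 in the controls and 16.7, 21.5 and 0 in the cKO libraries (log2 fold change -3.10 ± 1.35, SE, adjusted p = 0.371). Unlike for Hoxa11, its groups overlapped, since control replicate 3 lay below cKO replicates 1 and 2. Hoxb5os had 56.1, 23.4 and 10.7 in the controls and 0, 5.85 and 5.52 in the cKO libraries, without overlap (-2.84 ± 1.05, adjusted p = 0.272). Hotair, transcribed from the Hoxc cluster, had 1 and 7 reads in control replicates 1 and 2 and none elsewhere. Genes that flank the clusters gave 0 calls of 6 tested (1 with an unadjusted p under 0.05, 0 by edgeR and by DESeq2), with a median log2 fold change of -0.04.

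The TALE homeodomain proteins of the Meis, Pbx and Pknox families bind DNA together with Hox proteins. Of 9 genes tested, 8 had fitted values below 0 in limma, with a median log2 fold change of -0.82. Meis2 fell from a control mean of 1091 ± 358 (SD, n = 3) to 368 ± 50.2 in the cKO animals (log2 fold change -1.52 ± 0.24, SE, adjusted p = 0.0231). Its values were 1478, 1023 and 772 in the controls and 426, 346 and 333 in the cKO libraries, so control replicate 3 lay well above all cKO libraries. Pbx3 (205, 278 and 355 against 99.4, 96.5 and 124, adjusted p = 0.0554) and Meis1 (840.1, 757 and 524 against 497, 320 and 379, adjusted p = 0.163) had separated groups without a call. Of all genes tested, 10.5% had all cKO libraries below all controls. Meis2 lost its call without any 1 of the cKO libraries (adjusted p 0.0714 to 0.146).

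Polycomb and trithorax genes, whose products keep Hox clusters silent or active, gave 0 calls of 28 tested in limma, edgeR and DESeq2, with 1 unadjusted p under 0.05 (13.7% of all genes) and a median log2 fold change of -0.10. The Polycomb and trithorax share at the unadjusted p was thus below that of all genes. Genes that act upstream of Hox genes, mainly in retinoic acid metabolism and signalling, gave 0 calls of 9 tested in limma and edgeR and 1 in DESeq2 (5.33% of all genes), with 1 unadjusted p under 0.05 (13.7%). The gene with that p was Aldh1a1, a retinoic acid synthesis enzyme, with 1267, 1379.5 and 1678 in the controls and 1129, 998.5 and 938 in the cKO libraries (log2 fold change -0.49 ± 0.17, SE, adjusted p = 0.232). Aldh1a2, which makes retinoic acid in mesenchyme, had 1134, 756 and 245 in the controls and 382, 180 and 182 in the cKO libraries, so control replicate 3 again lay within the cKO range (log2 fold change -1.35 ± 0.60, SE, adjusted p = 0.397).

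Of 8 genes reported to depend on Hoxa10 or Hoxa11 in the female tract, 7 were tested. None was called by limma (1.16% of all genes) or edgeR (0.748%), and 4 were called by DESeq2 (5.33%). At an unadjusted p under 0.05 (13.7%) there were 5, of which Wnt5a, Itgb3, Ptger3 and Pgr had lower and Wnt4 had higher values in the cKO uteri, and the median log2 fold change was -1.004. Wnt5a, a secreted signal of uterine stroma, had 705, 559.9 and 458 in the controls and 282, 249 and 317 in the cKO libraries, without overlap (-1.004 ± 0.21, SE, adjusted p = 0.0623). Itgb3, an integrin subunit, had 825, 1808 and 864 in the controls and 543, 567 and 393 in the cKO libraries (-1.14 ± 0.31, adjusted p = 0.152). The prostaglandin receptor gene Ptger3 had 365, 274 and 94.3 against 45.5, 16.6 and 85.1 (-2.36 ± 0.68, adjusted p = 0.176). Wnt4, a secreted signal needed for the stromal response at implantation, had 593, 214 and 183 in the controls and 623, 462 and 661 in the cKO libraries (1.01 ± 0.42, adjusted p = 0.354). Wnt5a and Itgb3 separated the groups with control replicate 3 clearly among the controls, Ptger3 did so narrowly, and Wnt4 overlapped through control replicate 1.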

How the data were processed

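RNA sequencing libraries of 3 Tcf21f/f and 3 Tcf21d/d uteri were compared. Per the submitters' processing notes, HISAT2, SAMtools and featureCounts were used, without versions, and the build is named GRCm39, but 25239 of 25988 genes found in GENCODE vM21 had that annotation's coordinates, so positions are read as GRCm38. Each deposited signal value is a count scaled by the authors with a size factor of its library, as read from the values: 100% were whole reads within 0.01 reads. Beside these, the deposited table gives log2 fold changes and p-values of the authors, and exon lengths that equal those of GENCODE for 33 of 34 Hox genes.

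The members and gene lists were chosen with earlier results of these data known. Whole reads were recovered, and filterByExpr of edgeR 4.0.16, by group, set which genes were tested. Log2(value + 1) was fitted with limma 3.58.1 (R 4.3.3) using trend and robust settings, 3 against 3 libraries without covariates and Benjamini-Hochberg adjustment over 16314 genes at 0.05. The added 1 understates changes of low genes. Recovered reads were also tested with edgeR and DESeq2 1.42.0, and the test was tried on simulated data. Per-library values are given for Hox genes with an unadjusted limma p under 0.05, for those with separated groups and for the 3 most abundant per exon length in each cluster. For lists, called members and up to 4 with the smallest p could be named. Hoxa9, Hoxb5, Hoxb9, Hoxc8, Hoxc11, Hoxd11, Hotair, Esr1, Wt1, Hand2, Pdgfra and Nr2f2 fall outside this and were singled out after their values were seen. A library at 0 is given the value of 3 reads as its upper limit, which covers counting error only, since reads without molecular identifiers are not independent molecules. Promoter windows were taken from RefSeq. Some genes that these rules take are left out of the text and plots and are not reported here.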

Additional observations from a re-analysis of the deposited data

How the results depend on the processing

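For the 9 Hox genes with separated groups or a fitted log2 fold change below -1, 134 alternative values were computed. Of these, 124 kept direction and side of the threshold, 10 gained a call and none reversed. None of the 9 genes was called in the limma fit of all 6 libraries. Hox genes called lower numbered 0 with limma, 2 with DESeq2, 2 with a replicate block, 1 without control replicates 1 and 3 and 0 to 1 with 1 library left out. Those called higher numbered 0, 1 with DESeq2, 2 without control replicates 1 and 3 and 0 to 1 with 1 library left out. Over all genes, 145 were lower: 584 with DESeq2, 504 without control replicates 1 and 3 and 42 to 347 with 1 library left out. Higher genes numbered 45: 13 with edgeR, 285 with DESeq2, 82 with no filter, 271 without control replicates 1 and 3 and 1 to 117 with 1 library left out. The cause was not tested. The difference in posterior share ran from -25.6 to -8.28 points with 1 library left out and was -15.9 points without division by exon length. The labels name no pairing of samples by replicate number. Same-numbered libraries had correlations of their deviations from group means of 0.00843, -0.176 and 0.0438. Such values over all genes cannot exclude an effect shared by number on some genes. Hoxa10, Hoxa11, Hoxd10 and Hoxd11 fell from replicate 1 to 3 in both groups, while Hoxd9, Hoxc6, Hoxc9 and Hoxc10 had no order common to both groups. The replicate block, which called Hoxa10 and Hoxa11, stands for a shared number only. Hoxa13, Hoxc12, Hoxc13 and Hoxd4 had too few reads for a comparison at this depth.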
